A study of Rattus norvegicus with 12 samples.

Results

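The comparison concerned infarcted rat hearts after treatment with Yiqifumai Injection (YQFM) against infarcted hearts given saline. The members were chosen by their group labels and comprised 4 YQFM arrays and 4 CHF arrays, so that 8 of the 12 arrays of the series were compared. All 8 arrays held total RNA from the left ventricle of male Wistar rats, taken near the infarction area. CHF stands for the chronic heart failure group, which the study also calls the MI group. In both groups the left anterior descending coronary artery had been ligated, and the surviving rats were randomized 4 weeks after surgery. YQFM rats then received 5 mg/kg/d of YQFM by intraperitoneal injection for 28 days, and CHF rats received an equal volume of physiological saline. YQFM is prepared from Panax ginseng, Ophiopogon and Schisandra. The remaining 4 arrays came from SHAM rats, which had thoracotomy without ligature and received saline, and they entered the same model, the scaling and the ratios to SHAM given beside some results. The ages of the rats are not given in the sources used here, and a permanent ligature with inclusion by cardiac function makes the model one of an established, unreperfused infarct. The labels do not state that each array is a different rat, so p-values measure the spread between these samples. In such bulk tissue, fewer cells of a type and less RNA per cell cannot be told apart.

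Each array carried 758 rat miRNAs, of which 471 were detected on no array and 263 were tested, which a group of 4 arrays had to detect 2 or more times. The YQFM arrays detected 253.5 ± 10.4 (SD, n = 4) miRNAs and the CHF arrays 239 ± 25.4, a difference within the spread between arrays (exact two-sided permutation test, p = 0.371). MiR-1-3p, miR-133a-3p, miR-133b-3p and miR-499-5p, which are characteristic of heart muscle, were detected on all 8 arrays. The 8 arrays lay on 3 slides. Slide 1 held CHF replicates 1 to 3, slide 3 held YQFM replicates 2 to 4 beside the SHAM arrays, and slide 2 alone held both groups, with CHF replicate 4 and YQFM replicate 1. These 2 arrays stood apart. CHF replicate 4 correlated with the YQFM arrays with a median r of 0.985 and with the other CHF arrays with 0.979, and YQFM replicate 1 correlated with the CHF arrays with 0.983 and with the other YQFM arrays with 0.968. CHF replicate 4 also carries a source name of the SHAM group, although its title, description and group entry all say CHF. The counts of miRNAs called, and some single ratios, are therefore given with and without these arrays.

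MiRNAs are short RNAs cut from hairpin precursors. Either arm of a hairpin, called 5p or 3p, can be loaded into Argonaute, where bases 2 to 8, the seed, choose the target mRNAs. The arms of a hairpin come from the same transcript but have different seeds, and they are turned over separately. MiRNAs with the same seed form a family, and precursors that lie close together in the genome are often transcribed together. In heart muscle, miR-1, miR-133, miR-208a and miR-499 are the best known, and miR-423-5p has been studied in blood as a marker of heart failure.

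The mature sequences below are those the results turn on, from RefSeq on GRCr8, written 5′ to 3′ with the seed in capitals. RefSeq held a mature sequence for 239 of the 263 tested miRNAs, with 198 different seeds. MiR-423-5p is shown because it carried the arm difference, and miR-326-5p, miR-770-3p and miR-30c-2-3p because they were also lower in YQFM hearts. MiR-423-5p lies at chr10:62412317-62412340 on the minus strand, within the span of Nsrp1, and miR-326-5p at chr1:163266184-163266203 on the plus strand, within Arrb1. MiR-770-3p, at chr6:134298129-134298145 on the plus strand, lies within the noncoding RNA Meg3.
miR-423-5p: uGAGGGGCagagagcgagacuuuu
miR-326-5p: gGGGGCAGggccuuugugaa
miR-770-3p: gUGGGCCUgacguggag
miR-30c-2-3p: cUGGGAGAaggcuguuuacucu

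The miR-290 cluster lies on the minus strand of chromosome 1 within the span of Nlrp12, from position 74878019 to 74880123. MiR-290 and miR-292-5p share a seed, and miR-294, miR-291a-5p and miR-295-5p each have another.
miR-290: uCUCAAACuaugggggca
miR-292-5p: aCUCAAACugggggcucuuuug
miR-294: cUCAAAAUggaggcccuaucu
miR-291a-5p: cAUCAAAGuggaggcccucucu
miR-295-5p: aCUCAAAUguggggcacacuucu

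MiR-92b-3p is shown with miR-92a-3p and miR-25-3p because all 3 have the seed AUUGCAC and differ outside it.
miR-92b-3p: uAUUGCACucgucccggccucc
miR-92a-3p: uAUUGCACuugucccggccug
miR-25-3p: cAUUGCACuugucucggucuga

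The 3p arms of the miR-125 hairpins are shown because they were higher in YQFM hearts. Their seeds all differ, but the bases after the seed are much alike.
miR-125a-3p: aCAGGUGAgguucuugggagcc
miR-125b-1-3p: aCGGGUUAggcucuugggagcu
miR-125b-2-3p: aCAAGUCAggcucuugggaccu

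MiR-133c is shown beside miR-133a-3p because its name is misleading. Its gene, Mir3582, lies on the plus strand at chr18:2157886-2157906, opposite Mir133a1 on the minus strand and within Mib1, and its seed is not that of the miR-133 family.
miR-133c: cAGCUGGUugaaggggaccaa
miR-133a-3p: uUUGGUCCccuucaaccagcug

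Values below are log2 of the scaled signal of a miRNA, and a log2 ratio is the mean of the YQFM arrays minus the mean of the CHF arrays. No miRNA passed an adjusted p of 0.05 between YQFM and CHF hearts (limma, Benjamini-Hochberg), that is 0 of 263 (0%), and the smallest adjusted p was 0.0786. At an unadjusted p under 0.05 there were 50 miRNAs (19%), with 30 (11.4%) higher and 20 (7.6%) lower in YQFM hearts. The split depended on the processing, with 15 of 57 higher when each miRNA was read from its brightest probe, 15 of 32 with the total gene signal, 27 of 38 without scaling and 31 of 39 with the authors' processed values. For 17 miRNAs (6.46%) the 4 YQFM arrays did not overlap the 4 CHF arrays, 11 of them (4.18%) lying above and 6 (2.28%) below. Log2 ratios ran from -1.19 for miR-326-5p to 1.04 for miR-125b-1-3p, around a median of -0.01 over all tested miRNAs. Without CHF replicate 4, 28 miRNAs (10.6%) were called, 17 (6.46%) higher and 11 (4.18%) lower in YQFM hearts. Without YQFM replicate 1 there were 23 calls (8.75%), and 12 miRNAs were called in both of these fits. Without both arrays 55 were called (20.9%), 36 (13.7%) higher and 19 (7.22%) lower, but the remaining CHF and YQFM arrays then lie on separate slides, so that slide and treatment cannot be told apart.

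The 20 miRNAs with the smallest p among miRNAs that 3 or more arrays of each group detected are described by name. Of these, 12 were higher and 8 lower in YQFM hearts, and for 9 the arrays of the groups did not overlap, a count that the choice by p favours. CHF replicate 4 was the CHF array nearest to the YQFM mean for 17 of the 20. With normexp background correction all 20 kept their sign, but 17 were more than 1.5 times smaller. Only miR-294 was called, at 0.41 (limma, adjusted p = 0.0394). MiR-423-5p had -0.29, miR-326-5p -0.22 and miR-92b-3p 0.14. Close to 0 were miR-193a-5p at 0.03, miR-125b-2-3p at 0.04, miR-30c-2-3p at -0.06 and miR-328a-3p at 0.07.

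**Figure D1:**
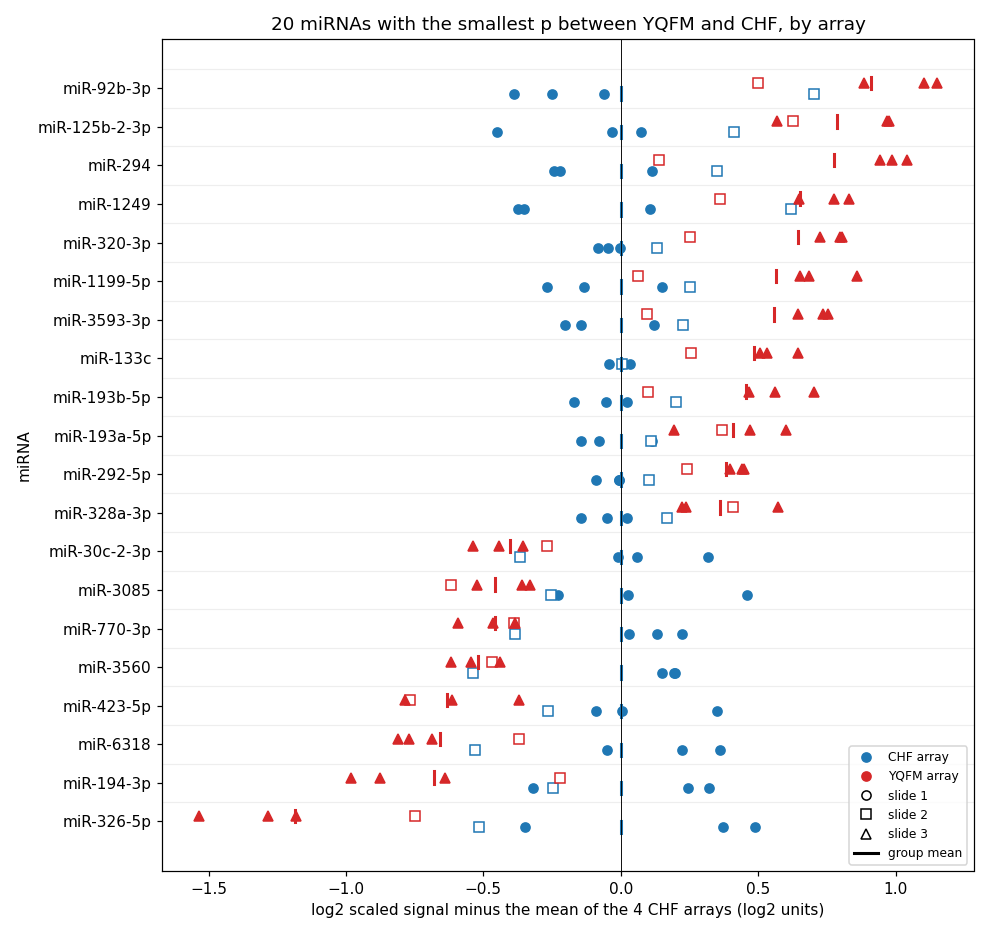
Log2 scaled signal of the 20 miRNAs on each YQFM and CHF array, minus the mean of the 4 CHF arrays. Circles, squares and triangles stand for slides 1, 2 and 3, open squares for CHF replicate 4 and YQFM replicate 1, and vertical bars for group means. MiR-92b-3p lies highest at a log2 ratio of 0.91 and miR-326-5p lowest at -1.19, and the open squares often lie between the circles and the triangles.

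MiR-423-5p was lower in YQFM hearts and its partner miR-423-3p was not. On CHF arrays 1 to 4 the log2 signal of miR-423-5p was 6.17, 6.08, 6.52 and 5.90, and on YQFM arrays 1 to 4 it was 5.40, 5.38, 5.55 and 5.80. Every YQFM array lay below every CHF array, with CHF replicate 4 the lowest of its group. The log2 ratio was -0.63 (SE 0.14, adjusted p = 0.0786), or 1.55-fold higher in CHF hearts, and the exact two-sided permutation test gave p = 0.0286, the smallest that 4 arrays against 4 allow. Both probes of miR-423-5p were lower in YQFM hearts, at -0.74 and -0.54. SHAM arrays averaged 5.94 ± 0.12 (SD, n = 4), so the ratio of CHF to SHAM was 0.23 (adjusted p = 0.311) and that of YQFM to SHAM -0.41 (adjusted p = 0.452). The 3 comparisons share arrays.

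MiR-423-3p gave 3.38, 3.06, 3.31 and 3.49 on CHF arrays 1 to 4 and 3.26, 3.58, 3.65 and 3.45 on YQFM arrays 1 to 4. The groups overlapped, with a log2 ratio of 0.18 (SE 0.13, adjusted p = 0.519). Its 4 probes did not move alike, from -0.20 to 0.38, and 1 of them was at the floor on all arrays. Of 314 pairs of arms on the array, 32 had both arms detected on 3 or more YQFM and 3 or more CHF arrays. For these 32 the difference between the arms was itself tested. Other pairs, such as miR-1-5p and miR-1-3p, were not compared in this way. MiR-423 was the only pair called (1 of 32, 3.12%), with 5 pairs (15.6%) at an unadjusted p under 0.05. Its log2 signal of the 5p arm minus the 3p arm was 2.80, 3.01, 3.21 and 2.42 on CHF arrays 1 to 4 and 2.14, 1.80, 1.91 and 2.35 on YQFM arrays 1 to 4. Again no YQFM array reached the lowest CHF array, and the ratios of the arms differed by -0.81 (SE 0.20, limma, adjusted p = 0.0425). The call was lost in 12 of 23 alternatives, although the difference stayed negative in all of them. It was lost without CHF replicate 1 (-0.83), 2 (-0.76) or 3 (-0.69) and without YQFM replicate 2 (-0.73) or 3 (-0.76), with adjusted p from 0.101 to 0.180. Of the slide 2 arrays, leaving out CHF replicate 4 gave -0.96 (limma, adjusted p = 0.00485) and leaving out YQFM replicate 1 gave -0.84 (adjusted p = 0.0221). With the scanner's total gene signal miR-423-3p was lower too, at -0.63, and the arms differed by -0.06 (adjusted p = 0.951). On slide 2 alone the difference was -0.28.

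**Figure D2:**
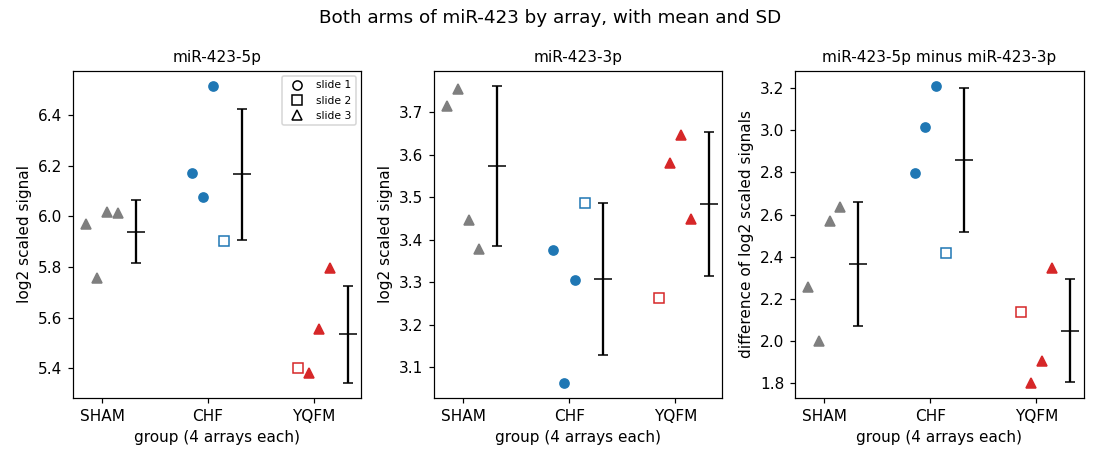
Log2 scaled signal of miR-423-5p, of miR-423-3p and their difference on every array of the SHAM, CHF and YQFM groups, with marker shape for the slide and a bar for the mean with its SD. The YQFM arrays lie below the CHF arrays for miR-423-5p and for the difference, at means of 2.05 and 2.86 for the latter, and overlap them for miR-423-3p.

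Among the other miRNAs that were lower in YQFM hearts, miR-326-5p had the largest ratio of the 20. Its log2 signal was 4.71, 5.43, 5.54 and 4.54 on CHF arrays 1 to 4 and 4.31, 3.52, 3.77 and 3.87 on YQFM arrays 1 to 4. All YQFM arrays lay below all CHF arrays, and the nearest arrays of the groups were the pair on slide 2. The log2 ratio was -1.19 (SE 0.29, adjusted p = 0.0786), or 2.28-fold higher in CHF hearts. It rested on 1 of the 2 probes, as the other never rose above the floor. MiR-326-3p was detected on no array.

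MiR-3085 also separated the groups, at 7.51, 7.25, 7.94 and 7.23 on CHF arrays 1 to 4 and 6.87, 7.12, 7.15 and 6.96 on YQFM arrays 1 to 4. Its log2 ratio was -0.46 (SE 0.15, adjusted p = 0.112), with both probes lower, and on slide 2 alone the difference was -0.36. MiR-770-3p, encoded in the imprinted Meg3 locus, had 4.69, 4.58, 4.78 and 4.17 on CHF arrays 1 to 4 and 4.17, 4.09, 4.17 and 3.96 on YQFM arrays 1 to 4. CHF replicate 4 fell within the YQFM values, and the log2 ratio was -0.46 (SE 0.13, adjusted p = 0.0841). The 5p arm of this hairpin was detected on no CHF or YQFM array. MiR-30c-2-3p, the arm opposite miR-30c-5p, had a log2 ratio of -0.40 (SE 0.14, adjusted p = 0.134) while miR-30c-5p had 0.07 (SE 0.16). MiR-30c-1-3p, which shares its seed UGGGAGA, had -0.03 (SE 0.13). With the total gene signal the ratio of miR-30c-2-3p was 0.00.

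MiR-194-3p had a log2 ratio of -0.68 (SE 0.20, adjusted p = 0.0926), but 0.07 with the total gene signal, and its partner miR-194-5p was detected on no array. MiR-6318 had -0.66 (SE 0.19, adjusted p = 0.0894). MiR-3560, whose gene overlaps Mir501 within Clcn5, had -0.52 (SE 0.16, adjusted p = 0.107). It was 5.15, 5.20, 5.19 and 4.46 on CHF arrays 1 to 4 and 4.53, 4.38, 4.56 and 4.45 on YQFM arrays 1 to 4, so that CHF replicate 4 alone lay among the YQFM arrays. On slide 2 alone these 3 differences were 0.02, 0.16 and 0.07, all of the opposite sign. Without CHF replicate 4 the adjusted p was 0.0508 for miR-194-3p, 0.00925 for miR-6318 and 0.00276 for miR-3560.

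In the miR-290 cluster, known from early embryonic cells of rodents, all 5 tested miRNAs had log2 ratios above 0, against 126 of 263 (47.9%) of all tested miRNAs, and 4 were higher at an unadjusted p under 0.05, against 11.4% of all. MiR-292-5p gave 4.67, 4.75, 4.75 and 4.86 on CHF arrays 1 to 4 and 5.00, 5.21, 5.15 and 5.20 on YQFM arrays 1 to 4. The groups did not overlap, although the 2 arrays of slide 2 were the nearest to each other, and the log2 ratio was 0.38 (SE 0.08, adjusted p = 0.0786). MiR-290, with the same seed, had 7.68, 7.43, 7.64 and 7.63 on CHF arrays and 7.68, 7.94, 7.79 and 8.08 on YQFM arrays, a log2 ratio of 0.28 (SE 0.11, adjusted p = 0.188), with its lowest YQFM array and highest CHF array nearly equal. MiR-294 had 5.63, 5.27, 5.29 and 5.86 on CHF arrays and 5.65, 6.50, 6.45 and 6.55 on YQFM arrays. YQFM replicates 2 to 4 were thus above all CHF arrays and YQFM replicate 1 was not, and the log2 ratio was 0.78 (SE 0.21, adjusted p = 0.0790). The ratio was 0.72 for miR-291a-5p (SE 0.25, adjusted p = 0.139) and 0.06 for miR-295-5p (SE 0.14, adjusted p = 0.899). The median ratio of the 5 was 0.38, or 0.42 without CHF replicate 4 and 0.06 on slide 2 alone, where miR-294 and miR-291a-5p had -0.21 and -0.33. MiR-295-5p also has a gene elsewhere on the chromosome. The opposite arms miR-291a-3p, miR-292-3p and miR-295-3p were detected on no array. Neither were miR-291b, miR-293-5p and miR-293-3p of the same cluster, so the ratios above do not describe the whole cluster. Members of this cluster have similar sequences, and cross-hybridization between them was not tested.

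**Figure D3:**
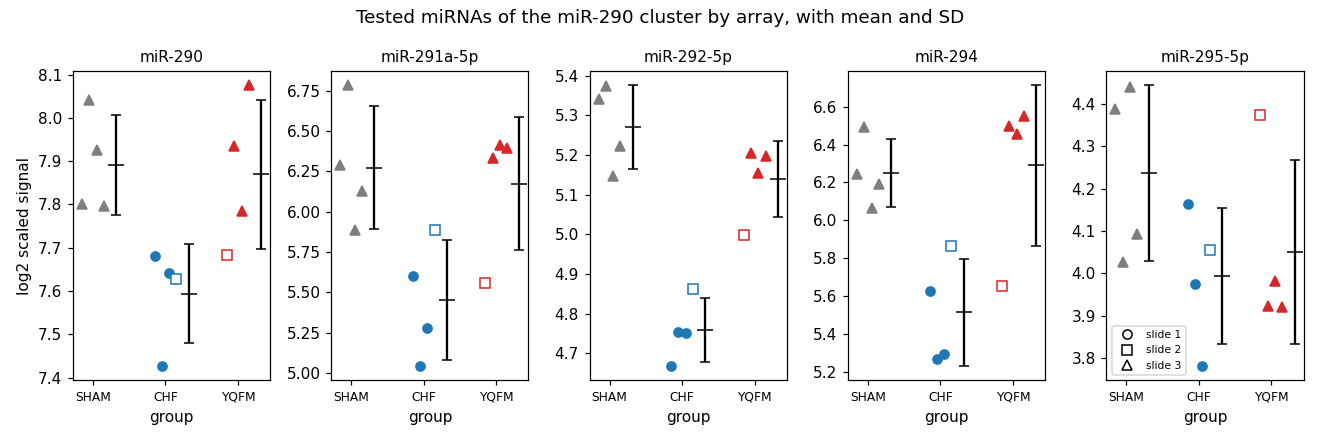
Log2 scaled signal of the 5 tested miRNAs of the miR-290 cluster on every array of the SHAM, CHF and YQFM groups, with marker shape for the slide and a bar for the mean with its SD. The YQFM mean lies above the CHF mean for each, by 0.06 for miR-295-5p to 0.78 for miR-294, and YQFM replicate 1, the open square, lies nearest to the CHF arrays for miR-290, miR-291a-5p, miR-292-5p and miR-294.

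MiR-92b-3p was the only member of its seed family at an unadjusted p under 0.05. On CHF arrays 1 to 4 it gave 3.70, 3.51, 3.37 and 4.46, and on YQFM arrays 1 to 4 it gave 4.26, 4.86, 4.91 and 4.65. CHF replicates 1 to 3 lay below all YQFM arrays and CHF replicate 4 lay above YQFM replicate 1. The log2 ratio was 0.91 (SE 0.23, adjusted p = 0.0786), or 1.88-fold, with all 4 probes higher, and 1.14 (adjusted p = 0.00276) without CHF replicate 4. On slide 2 alone it was -0.20. MiR-92a-3p, a repressor of vessel growth with the same seed, had a log2 ratio of 0.07 (SE 0.11) and miR-25-3p had 0.03 (SE 0.17), and neither was near the threshold (adjusted p = 0.841 and 0.960).

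The 3p arms of all 3 miR-125 hairpins were higher in YQFM hearts at an unadjusted p under 0.05, and the 5p arms were not. These 3p arms are much alike after the seed and may share signal. Cross-hybridization between them was not tested, so they do not count as separate measurements. MiR-125b-2-3p had 2.80, 2.90, 2.38 and 3.24 on CHF arrays 1 to 4 and 3.45, 3.80, 3.40 and 3.81 on YQFM arrays 1 to 4. The groups did not overlap, but the values lie near the floor of 2.38, and 1 of its 4 probes was at the floor on all arrays. The log2 ratio was 0.79 (SE 0.19, adjusted p = 0.0786), but 0.04 with normexp. MiR-125b-1-3p had 6.18, 5.68, 5.41 and 5.94 on CHF arrays and 5.77, 7.20, 7.16 and 7.27 on YQFM arrays. YQFM replicate 1 lay among the CHF arrays, and the log2 ratio was 1.04 (SE 0.40, adjusted p = 0.188). MiR-125a-3p had 8.78, 8.75, 8.75 and 9.10 on CHF arrays and 8.81, 9.66, 9.85 and 9.78 on YQFM arrays, with a log2 ratio of 0.68 (SE 0.24, adjusted p = 0.134). MiR-125b-5p and miR-125a-5p, the arms usually loaded and the mammalian relatives of lin-4, had log2 ratios of 0.09 (SE 0.24) and -0.01 (SE 0.18). The arms of miR-125b-5p and miR-125b-2-3p differed by -0.69 in their ratios (SE 0.27, adjusted p = 0.232), and those of miR-125a by -0.69 (SE 0.34, adjusted p = 0.232). On slide 2 alone these arm differences were 0.45 and 0.50, of the opposite sign.

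Of the miR-193 hairpins, both 5p arms were higher in YQFM hearts. MiR-193a-5p had 2.77, 2.84, 3.03 and 3.03 on CHF arrays 1 to 4 and 3.29, 3.52, 3.39 and 3.11 on YQFM arrays 1 to 4, without overlap, and its log2 ratio was 0.41 (SE 0.10, adjusted p = 0.0786). It also lay near the floor, where 2 of its 4 probes stood on all arrays. Its ratio was 0.03 with normexp and turned to -1.31 with the total gene signal. MiR-193b-5p had a log2 ratio of 0.46 (SE 0.13, adjusted p = 0.0894). Their 3p arms, which share the seed ACUGGCC, had 0.40 (SE 0.28) for miR-193a-3p and 0.31 (SE 0.22) for miR-193b-3p. Arm differences were 0.00 (SE 0.31) and 0.15 (SE 0.22), so that the arms of these hairpins could not be told apart at this precision.

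MiR-133c gave 4.55, 4.47, 4.52 and 4.52 on CHF arrays 1 to 4 and 4.77, 5.02, 5.16 and 5.05 on YQFM arrays 1 to 4. The CHF arrays were close together and all YQFM arrays lay above them, with YQFM replicate 1 the lowest. The log2 ratio was 0.48 (SE 0.11, adjusted p = 0.0786), and on slide 2 alone it was 0.25. From the opposite strand, miR-133a-3p had a log2 ratio of -0.14 (SE 0.10) and miR-133a-5p -0.03 (SE 0.17), and the seed partner miR-133b-3p had 0.03 (SE 0.11). In the same cluster miR-1-3p, the most studied muscle miRNA, had -0.20 (SE 0.14, adjusted p = 0.519). MiR-1-5p, its opposite arm, had 0.50 (SE 0.20, adjusted p = 0.210) and was detected on 4 YQFM arrays and 1 CHF array.

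MiR-320-3p, which is made without Drosha, separated the groups at 6.41, 6.36, 6.33 and 6.54 on CHF arrays 1 to 4 and 6.66, 7.21, 7.13 and 7.20 on YQFM arrays 1 to 4. YQFM replicate 1 lay nearer to the CHF arrays than to the other YQFM arrays, and the log2 ratio was 0.64 (SE 0.18, adjusted p = 0.0790). MiR-328a-3p, a regulator of cardiac calcium channels, separated the groups as well, with a log2 ratio of 0.36 (SE 0.12, adjusted p = 0.134), against 0.11 (SE 0.08) for miR-328a-5p, but its ratio turned to -2.46 with the total gene signal. MiR-1199-5p had 4.51, 4.23, 4.09 and 4.61 on CHF arrays and 4.42, 5.22, 5.04 and 5.01 on YQFM arrays, a log2 ratio of 0.56 (SE 0.18, adjusted p = 0.107). Its 3p arm had -0.02 (SE 0.12), and the arms differed by 0.59 (SE 0.19, adjusted p = 0.137) in their ratios, the second smallest p among the 32 pairs. With the total gene signal miR-1199-5p turned to -0.11. MiR-1249 had 0.65 (SE 0.21, adjusted p = 0.112) and miR-3593-3p 0.56 (SE 0.17, adjusted p = 0.107). On slide 2 alone miR-1199-5p, miR-1249 and miR-3593-3p had -0.19, -0.26 and -0.13.

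Seed families of several detected members showed ratios near 0. Of the 9 tested let-7 miRNAs with the seed GAGGUAG, which restrain growth genes in differentiated tissue, 0 had a log2 ratio above 0 and 0 an unadjusted p under 0.05, with a median of -0.12. Of the 5 with the miR-15/16 seed AGCAGCA, 0 were above 0 and 0 had an unadjusted p under 0.05, with a median of -0.19, and of the 5 with the miR-17 seed AAAGUGC 1 was above 0, with a median of -0.14. Members of these families differ in few bases and may share signal, so they do not count as separate measurements. On slide 2 alone the medians of the longer lists of let-7 and miR-15/16 members were 0.36 and 0.52, of the opposite sign. With the authors' processed values the list medians of let-7, miR-15/16 and miR-17 were 0.09, 0.03 and 0.02. With the brightest probe they were -0.25, -0.29 and -0.32. The 10 tested members of the miR-30 list, abundant in cardiomyocytes, had a median of 0.05 and 1 member, miR-30c-2-3p, at an unadjusted p under 0.05. The 4 tested members of the collagen-repressing miR-29 list ran from -0.14 for miR-29a-3p to 0.06 for miR-29c-5p, and those of the miR-23/27/24 list from -0.27 for miR-23a-5p to 0.12 for miR-23a-3p. Over all tested miRNAs with a stated arm, 12 of 111 5p arms and 9 of 102 3p arms were higher, and 7 of 111 and 7 of 102 were lower, at an unadjusted p under 0.05, near the 11.4% higher and 7.6% lower of all tested miRNAs.

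**Figure D4:**
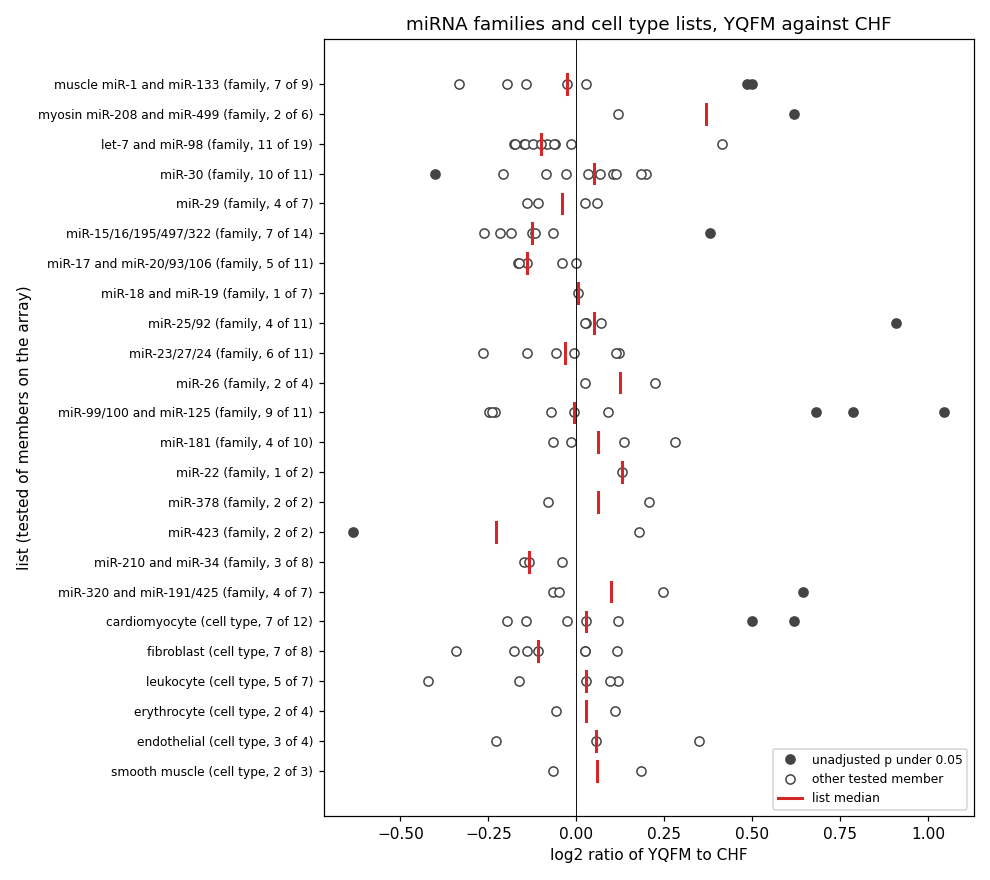
Log2 ratio of YQFM to CHF for each tested member of the families and cell type lists, with filled circles for an unadjusted p under 0.05 and a bar for the list's median. The members farthest from 0 are the 3p arms of miR-125, miR-92b-3p, miR-320-3p, miR-208a-5p and miR-423-5p, while the list medians lie between -0.23 for miR-423 and 0.37 for miR-208 and miR-499.

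Lists of miRNAs known from particular heart cells were compared to describe the tissue. The cardiomyocyte list had 7 of 12 members tested, a median log2 ratio of 0.03 and 2 members higher at an unadjusted p under 0.05, which were miR-208a-5p and miR-1-5p, against 11.4% of all tested miRNAs. Its summed scaled signal ran from 9485 to 11888 on CHF arrays and from 9297 to 11590 on YQFM arrays, and miR-208b-3p, miR-208b-5p, miR-499-3p and miR-133b-5p were detected on no array. Fibroblast miRNAs had 7 of 8 members tested and a median of -0.11, or 0.08 with the authors' processed values and -0.26 with the brightest probe. Of these miRNAs 0 had an unadjusted p under 0.05, and miR-21-5p was the lowest at -0.34 (SE 0.38). Their summed signal ran from 2645 to 4055 on CHF arrays and from 2626 to 4208 on YQFM arrays. Leukocyte miRNAs had 5 of 7 members tested and a median of 0.03, with summed signals of 335 to 427 on CHF and 335 to 416 on YQFM arrays, and miR-142-3p and miR-142-5p, which define blood cells, were detected on no array. For erythrocyte miRNAs, with 2 of 4 tested, the summed signals were 162 to 214 and 165 to 199, and the miR-144 arms were detected on no array. Endothelial miRNAs had 3 of 4 tested and summed signals of 720 to 959 on CHF and 590 to 742 on YQFM arrays, with miR-126a-3p at a log2 ratio of -0.23 and miR-222-3p at 0.35. MiR-222-3p was detected on 3 YQFM arrays, 1 CHF array and no SHAM array. It thus passed the detection filter through the YQFM arrays alone, and its ratio says little of the endothelial list. Smooth muscle miRNAs had 2 of 3 tested, at -0.07 for miR-143-3p and 0.18 for miR-145-5p, and summed signals of 381 to 604 and 431 to 551. No member of the fibroblast, leukocyte, erythrocyte, endothelial or smooth muscle list had an unadjusted p under 0.05.

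Of the 50 miRNAs at an unadjusted p under 0.05 between YQFM and CHF, 15 had an unadjusted p of 0.05 or more between CHF and SHAM. In YQFM hearts 13 of these 15 were lower, against 20 of all 50. A p above the threshold in CHF against SHAM does not show equal levels, and the difference between these comparisons, which share the CHF arrays, was not tested. Besides miR-423-5p, they included miR-3085, with log2 ratios of 0.19 for CHF to SHAM and -0.27 for YQFM to SHAM, and miR-30c-2-3p, with 0.28 and -0.12. MiR-770-3p had 0.24 and -0.22, and miR-194-3p had 0.44 and -0.24. The miR-490-5p arrays of the groups did not overlap, at a log2 ratio of YQFM to CHF of -0.25 (SE 0.11), with 0.09 for CHF to SHAM and -0.16 for YQFM to SHAM. MiR-345-3p had -0.27 (SE 0.12), with 0.04 and -0.23. In this set miR-125b-1-3p, at 1.04, and miR-341, at 0.40 (SE 0.16), were higher in YQFM hearts. The log2 ratios for CHF to SHAM and YQFM to SHAM were -0.83 and 0.22 for miR-125b-1-3p, and -0.19 and 0.21 for miR-341. Others were miR-3584-5p at -0.62, miR-327 at -0.45, miR-667-5p at -0.40, miR-361-5p at -0.32, miR-6315 at -0.30 and miR-494-3p at -0.29. Of the 15, 9 had the opposite sign on slide 2 alone, the farthest being miR-327 at 0.31, miR-361-5p at 0.19 and miR-125b-1-3p at -0.17.

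A further 14 miRNAs were detected on arrays of mainly 1 of the groups. MiR-208a-5p, from an intron of the cardiac myosin gene Myh6, was detected on 4 YQFM arrays and 1 CHF array. Its log2 signal was 3.07, 2.81, 2.83 and 3.32 on CHF arrays 1 to 4 and 3.27, 3.88, 3.64 and 3.72 on YQFM arrays 1 to 4, a log2 ratio of 0.62 (SE 0.15, adjusted p = 0.0786), and the slide 2 pair differed by -0.05. Its SHAM mean was 4.05 ± 0.14 (SD, n = 4). MiR-208a-3p, the better known arm, was detected on no CHF or YQFM array. MiR-6317 was likewise detected on 4 YQFM arrays and 1 CHF array, with a log2 ratio of 0.80 (SE 0.25, adjusted p = 0.107). MiR-878 and miR-743a-3p were detected on 3 CHF arrays and on no YQFM array. Against the higher of the floor and the lowest signal well above background they were at least 1.73-fold and at least 1.72-fold higher in CHF hearts. No SHAM array detected them, so both passed the detection filter through the CHF arrays alone. Their YQFM values lay at or next to the floor, and the filter fixed the direction of these ratios. MiR-202-3p, with 4 CHF arrays, 1 YQFM array and 1 SHAM array, also passed the filter through the CHF arrays alone. It had a log2 ratio of -1.02 (SE 0.28), and the slide 2 pair differed by 0.28. In the other direction, miR-448-3p was detected on 3 YQFM arrays and no CHF array and was at least 1.36-fold higher (adjusted p = 0.146). MiR-503-3p was detected on 2 YQFM arrays and no CHF array, at 1.30-fold (adjusted p = 0.112). All its CHF values lay at the floor, so this ratio could not point the other way. In all these fold values, arrays of the higher group without detection were counted at no less than the floor, so the bounds are approximate. MiR-325-5p differed in detection, on 4 YQFM arrays and 1 CHF array, but its scaled signal lay at the floor on all 8.

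Slide and treatment overlapped in 1 pair of arrays only. With slide as a fixed block the ratio of YQFM to CHF equals the difference of this pair on slide 2. In that pair 10 of the 20 miRNAs kept the sign of their ratio, among them miR-423-5p at -0.50, miR-3085 at -0.36, miR-133c at 0.25, miR-193a-5p at 0.26 and miR-125b-2-3p at 0.21. The other 10 had the opposite sign, the farthest being miR-1249 at -0.26 and miR-294 at -0.21. With slide as a fixed block 17 miRNAs had an unadjusted p under 0.05, with slide as a random block 7, and no miRNA was called in either fit (limma). The part of slide in the ratios was not tested beyond this pair.

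**Figure D5:**
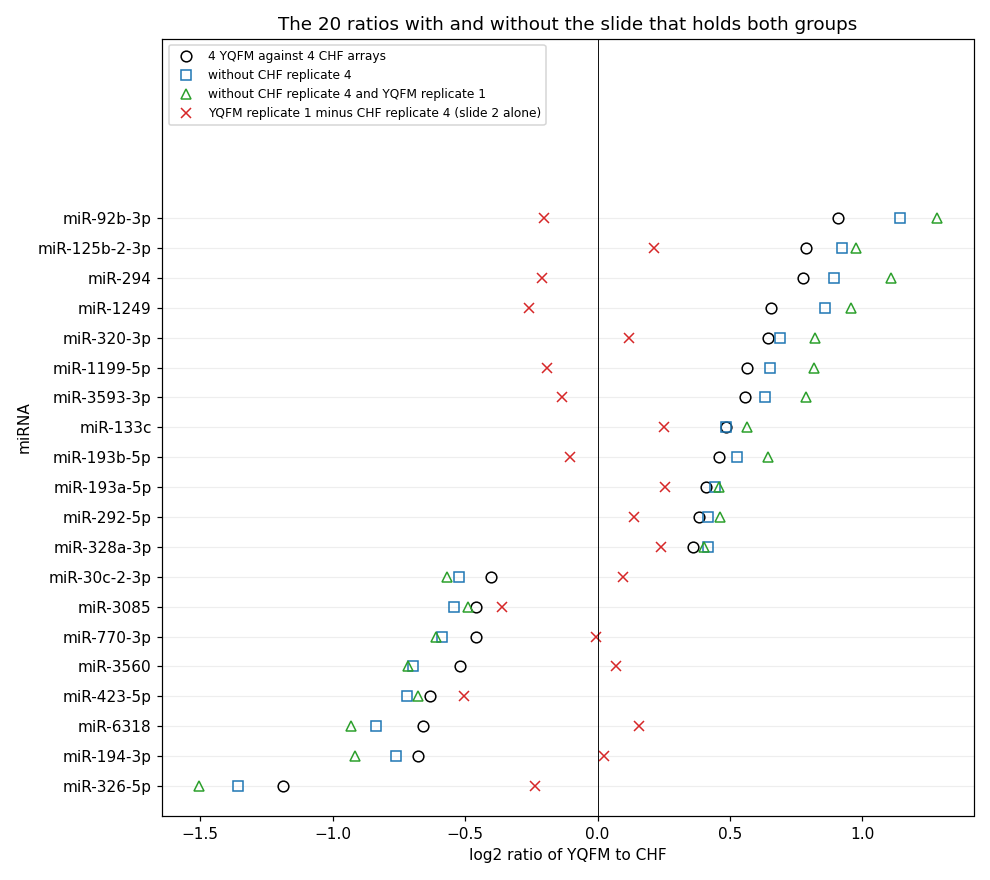
Log2 ratio of YQFM to CHF of the 20 miRNAs for all 8 arrays, without CHF replicate 4, without CHF replicate 4 and YQFM replicate 1, and for the pair of arrays on slide 2. Ratios without both arrays reach 1.28 for miR-92b-3p, while the crosses of the slide 2 pair lie between -0.50 and 0.26.

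Among the miRNAs the study selected, miR-216b-5p was the only 1 tested here, with a log2 ratio of 0.49 (SE 0.22, adjusted p = 0.253). Its CHF values lay at or next to the floor, so this ratio could not be clearly negative. Of the other 6, miR-21-3p was detected on 1 YQFM array and no CHF array. No array detected miR-702-5p, miR-542-3p, miR-381-3p, miR-219a-2-3p or miR-466c-5p by the rule used here. The study selected by fold change in its own values. For these 6 the values are scaled signals before the log2 step, unlike the log2 values above. All lay near or below the floor of 5.20 on that scale. On CHF and then YQFM arrays miR-21-3p had 0.69 to 2.80 and 4.31 to 4.96. MiR-381-3p had 3.04 to 5.12 and 5.38 to 7.53. MiR-542-3p had 1.81 to 4.23 and 3.95 to 7.30, and miR-702-5p 2.66 to 5.72 and 0.39 to 2.73. MiR-219a-2-3p had 2.87 to 5.85 and 2.12 to 3.34, and miR-466c-5p 2.31 to 6.64 and 3.10 to 6.26.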

How the data were processed

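MiRNA was measured in 12 heart samples on 1-colour Agilent arrays (12128 spots, 1806 probes, 3 slides). The intensity of each spot, deposited by the authors as scanner output, had been detrended and background-subtracted with Agilent Feature Extraction 10.7.1.1, per the file headers and the submitters' processing notes, and not scaled between arrays. A further intensity table deposited by the authors served as an alternative. By its values it held summed probe signals, unscaled, with 0.1 for what was not detected. The methods name GeneSpring and do not state a normalization. Array positions refer to rn4, and positions printed here to GRCr8. Groups came from titles, descriptions and group entries. The source names of CHF replicate 4 and SHAM replicate 4 give another group.

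Control spots and outlier spots were left out. Signals were averaged per probe and then per miRNA, scaled by the 75th percentile of the 201 miRNAs that all 12 arrays detected, set to a floor of 5.20 (2.38 in log2) and log2 transformed. A miRNA was detected where over 50% of the spots of a probe were well above background, and signal over background and the number of arrays limit the precision. MiRNAs were compared with limma 3.58.1 in R 4.3.3 in a model of all 12 arrays, with Benjamini-Hochberg adjustment at 0.05, and pairs of arms by their difference in log2 signal in the same model. Single values were compared by exact two-sided permutation tests over arrays. The procedure was tested on simulated data. Tables and figures were made with Python 3.11.15, pandas 2.3.3 and matplotlib 3.10.9. Clusters were miRNA genes less than 10000 bases apart.

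Named miRNAs were the 20 with the smallest p among miRNAs that 3 or more of the 4 arrays detected in both groups, miR-423, their opposite arms and seed partners, the highest and lowest members of the lists, the arm pairs called or with the 3 smallest p, and the study's selection. Others, such as those of the miR-290 cluster, the miR-125 arms and the detection differences, were picked with their values in view. Members and lists were chosen with earlier results of these data known. The alternatives were normexp (offset 50), the total gene signal, the brightest probe, the authors' processed values, other scaling, floors and filters, leaving out arrays, only the 2 groups, replicate and slide blocks, an intensity trend and the methods' t-test. Leaving out slide 2 was added after seeing the data. RT-PCR and cell experiments were not analysed here.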

Additional observations from a re-analysis of the deposited data

Results flagged for a closer look

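Among 48 groups of 4 arrays tested by Dixon's criterion, 4 held an array far from the other 3, where chance flags about 1 in 20 groups. All 4 involved an array of slide 2. YQFM replicate 1 had a log2 signal of 5.65 for miR-294, against 6.45 to 6.55 on the other YQFM arrays, 6.66 for miR-320-3p, against 7.13 to 7.21, and 8.23 for miR-3593-3p, against 8.78 to 8.89. CHF replicate 4 had 4.46 for miR-3560, against 5.15 to 5.20 on the other CHF arrays.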

How the results depend on the processing

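The number of miRNAs called between YQFM and CHF was 0 with all arrays, 1 with normexp or with the brightest probe, 28 without the arrays with conflicting labels, 55 without the slide that holds both groups, and 0 to 28 when each array was left out in turn. At an unadjusted p under 0.05 there were 25 with normexp, 32 with the total gene signal, 17 and 7 with slide as a fixed and as a random block, 98 without slide 2, and 35 to 80 when each array was left out. Of the 50, 30 were higher in YQFM hearts, against 15 of 57 with the brightest probe, 15 of 32 with the total gene signal, 31 of 39 with the authors' processed values, 25 of 49 with quantile normalization and 27 of 38 without scaling. The methods' t-test gave 45, and 0 after Benjamini-Hochberg. With the replicate number as a block 0 miRNAs were called, 53 had an unadjusted p under 0.05, and 0 arm pairs were called, with miR-423 at -0.81 (adjusted p = 0.0944). The deviations of same-numbered arrays correlated at 0.22, -0.19, 0.32 and 0.17. Differently numbered arrays were not compared in this way, so these values do not show whether the numbers pair the arrays. Arm pairs called numbered 7 without the arrays with conflicting labels, 10 without slide 2, 0 with normexp, total gene signal, quantile normalization, only the YQFM and CHF arrays and either slide block, and 0 to 8 when each array was left out. The miR-423 arm difference stayed negative in all 23 alternatives and lost its call in 12. It was -0.31 with normexp, -0.062 with the total gene signal, -0.70 with quantile normalization, -0.81 with only the 2 groups (adjusted p = 0.0667), -0.28 and -0.56 with slide as a fixed and a random block, and from -0.96 to -0.69 when each array was left out.

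Of 483 values of the 20 miRNAs and miR-423-3p under 23 alternatives, 16 turned sign and 61 passed the threshold, and 8 miRNAs never turned. With the total gene signal the log2 ratio was -1.31 for miR-193a-5p, 0.075 for miR-194-3p, -0.11 for miR-1199-5p, -2.46 for miR-328a-3p and -0.63 for miR-423-3p. With slide as a fixed block it was -0.20 for miR-92b-3p, -0.21 for miR-294, 0.16 for miR-6318, -0.10 for miR-193b-5p, 0.025 for miR-194-3p, 0.069 for miR-3560, -0.13 for miR-3593-3p, -0.19 for miR-1199-5p, -0.26 for miR-1249, 0.10 for miR-30c-2-3p and -0.22 for miR-423-3p. The arm difference of miR-125b turned to 0.036 with normexp and 0.45 with slide as a fixed block, and that of miR-1199 to -0.033 with the total gene signal. The causes were not tested. List medians moved by more than the spread between arrays in 33 of 552 values. Among these were, with the authors' processed values, the endothelial list at 0.24, leukocyte at 0.21, miR-30 at 0.24 and miR-29 at 0.15.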
